A study of Mus musculus with 6 samples.

Results

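Semaphorin, ephrin, Slit and netrin guidance genes were compared between uteri with and without Indian hedgehog (Ihh), and 0 of the 66 guidance genes that could be tested passed the test for a difference. Of all genes tested, 2.81% passed, a share that would be only a few genes of 66. The genes were chosen by symbol: semaphorins of classes 3 to 7, plexins, ephrins and their Eph receptors, Slit ligands and Robo receptors, and netrins with the receptors Dcc, Neo1 and the Unc5 family. They are 68 of the 18193 genes named on the array, read by 149 of its 45037 probe sets. The symbol pattern also took in Plxna4os1, a transcript named as the antisense partner of the plexin gene Plxna4, and Unc5cl, an Unc5-like protein that is not a netrin receptor.

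Guidance proteins steer migrating cells and growing nerve fibres and vessels, mostly by pushing or pulling on the cytoskeleton of the cell that receives them. Semaphorins signal through plexins, with neuropilins as co-receptors for most of the secreted class 3, ephrins through Eph receptors on touching cells and in both directions, Slits through Robo receptors, and netrins through Dcc and neogenin (attraction) or Unc5 receptors (repulsion). In the uterus the tissues that could carry them include epithelium, stroma, muscle, vessels and nerves, and whole uterus holds all of these together. Fewer cells of a type and less RNA per cell therefore cannot be told apart here.

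Total RNA of 3 control uterus samples (Ihhf/f, floxed Ihh alleles without ablation) and 3 Ihh-ablated uterus samples (PRcre/+Ihhf/f, labelled Ihhd/d) was hybridised to 1 Affymetrix mouse array each. Control uteri and Ihh-ablated uteri below mean these samples. Every sample was collected on day -1 of the artificially induced decidual reaction, in which hormones and a uterine stimulus make the stroma respond as in pregnancy. The Cre is expressed from the progesterone receptor locus, hence in every uterine cell type that uses that locus, and it is present in the ablated group alone, so its own effect and that of Ihh loss cannot be told apart. Titles and genotypes gave the groups, although a further label field mentions a Smoothened model for all 6 samples. Whether each sample is a separate mouse is not stated, so the p-values speak for the spread of these samples alone, and that spread may be technical.

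Defining genes of the uterus were bright on every array, and a Hedgehog target fell. The uterine markers Pgr, Esr1, Hoxa10, Hoxa11, Nr2f2 and Msx1 summed to between 13785 and 16606 on every array. The Ihh probe set itself did not pass the test (log2 difference -0.43, limma adjusted p = 0.164), whereas Gli1, whose transcription reports Hedgehog signalling, fell by 2.53 on the log2 scale (adjusted p = 0.000492). Adipocyte markers (6 of 8 on the array) summed to 1557, 4181 and 7126 in control replicates 1, 2 and 3 and to 5551, 9023 and 14851 in Ihh-ablated replicates 1, 2 and 3, and exocrine pancreas markers (5 of 7 on the array) reached 43408 in Ihh-ablated replicate 2 against 718 to 1658 elsewhere, with no marker at 0. Epithelial markers (6 of 6) summed to 7484 and 8127 in control replicates 1 and 2 but to 10534 in control replicate 3, which lay among the Ihh-ablated arrays (10446 to 11743). Endothelial markers (6 of 6) summed to 3635 to 4152 in control uteri against 3516 to 4104 in Ihh-ablated uteri, with 1 of them, the junction protein gene Cdh5, lower. Endometrial stroma markers (6 of 6) summed to 19911 to 23392 in control uteri and 20633 to 21058 in Ihh-ablated uteri, with Thy1 (-1.44, adjusted p = 0.00139) and Vim (-0.37, 0.0139) lower and Dcn (0.24, 0.0488) higher. Of the 6 smooth muscle markers, Actg2 was lower (-0.25, 0.0337). Nerve and Schwann cell markers (4 of 6 on the array) summed to 723 to 947 and 724 to 790. The part that these tissues have in the values below was not tested beyond the fits named there.

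Across all guidance families, 0 genes were higher, 0 were lower and 66 did not pass at an adjusted p under 0.05 (limma), where 2.81% of the 15530 genes tested passed, 1.28% higher and 1.53% lower. The same held for the 112 probe sets that were tested, against 2.14% of all probe sets, and the lowest adjusted p was 0.101. At an unadjusted p under 0.05 there were 15 guidance genes, 5 higher and 10 lower, which is 22.7% of them, and 24.2% of all genes reached that level, 9.99% higher and 14.2% lower. The groups did not overlap for 20 guidance genes, 5 higher and 15 lower (30.3%), and for 32.3% of all genes, 13.3% higher and 19.0% lower. Counted in either direction, the last 2 guidance shares lay close to those of the whole array. A share of 2.81% would be only a few genes of 66, so the lack of calls does not set the guidance genes apart. Their shares of lower genes alone were somewhat above those of the whole array for the unadjusted p and for groups that did not overlap. None of these gaps was tested. Their median log2 difference was -0.08 and that of all genes -0.04 (0.01 and 0.05 with median-centred arrays). Below 0 were 41 guidance genes and above it 25, or 62.1% below against 56.7% of all genes tested. Control replicate 2 had a median intensity of 142, against 121 to 126 on the other arrays, and the main fit did not rescale the arrays.

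**Figure D1:**
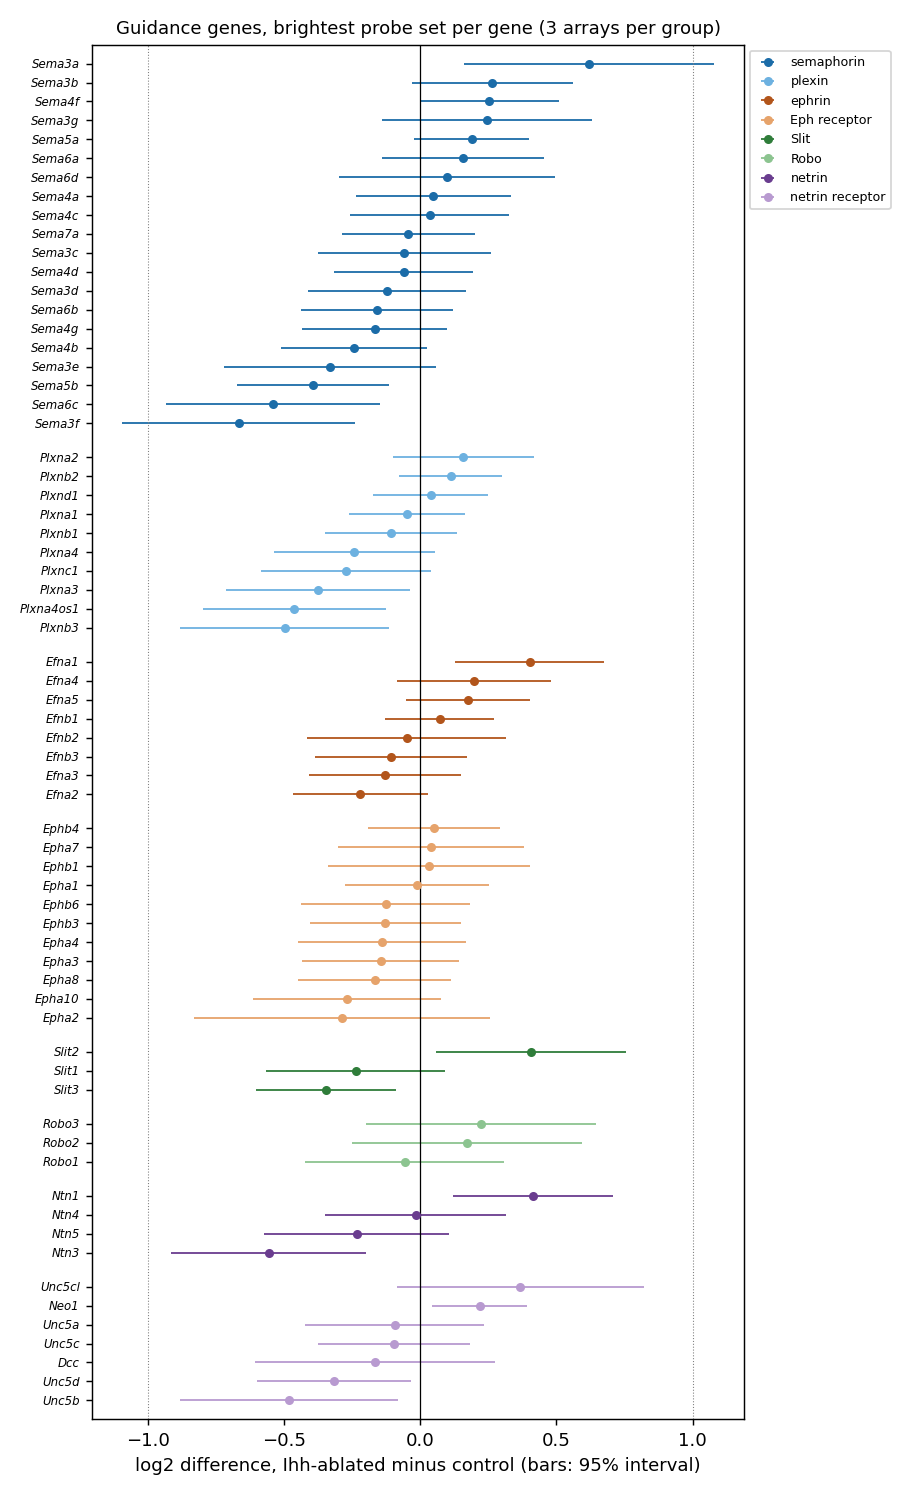
Log2 difference (Ihh-ablated minus control, horizontal axis) of the 66 tested guidance genes by family, each by its brightest probe set, with 95% intervals from the limma fit and dotted lines at a 2-fold change. Intervals of 64 genes lie inside those lines, and those of Sema3a and Sema3f reach past them.

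The intervals show how precisely the brightest probe set of each gene measured the difference. The unadjusted 95% interval of the difference lay within a 2-fold change either way for 64 of the 66 genes and within 1.5-fold for 44, and its median half-width was 0.29 on the log2 scale. For the other 22 genes the interval itself reached past 1.5-fold. A change of moderate size is not excluded for the 44 either, since the intervals are unadjusted and cover 1 probe set per gene. The 3 arrays per group also limit the precision. Another 37 guidance probe sets were among the dimmest 25% of the array and were not tested, with intensities of 20.1 to 99.97. All probe sets of Epha5 and Epha6, Eph receptors best known from the nervous system, were among these, so neither gene was tested.

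Among the secreted class 3 semaphorins, Sema3a and Sema3f had the largest differences, in opposite directions. The brightest Sema3f probe set read 1605, 1699 and 956 in control replicates 1, 2 and 3 and 889, 800 and 918 in the Ihh-ablated replicates. Control replicate 3 was close to the Ihh-ablated arrays, and the groups did not overlap. The difference was -0.67 (SE 0.19, adjusted p = 0.106, n = 3 each), or -0.93 without control replicate 3, where it passed (adjusted p = 0.00157). Without that array 12.2% of all genes tested passed, and leaving out any other single array gave no guidance call. Both limits apply to each fit without control replicate 3 given below. The other Sema3f probe sets differed by 0.03 and 0.09, with adjusted p of 0.896 and 0.641. The identifier of the bright one marks it as a probe set with probes that can also bind other transcripts, so the bright signal may not be Sema3f alone. Summed epithelial and adipocyte markers of control replicate 3 also lay within the range of the Ihh-ablated arrays. Both sums had the higher mean in Ihh-ablated uteri, and their part in this result was not tested.

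Sema3a encodes the repellent ligand of neuropilin and plexin A receptors. Its brightest probe set read 157, 106 and 195 in control uteri against 235, 240.5 and 207 in Ihh-ablated uteri. A dimmer one read 109, 103 and 121 in control uteri against 142, 153 and 138 in Ihh-ablated uteri. Every Ihh-ablated array lay above every control array in both probe sets. The remaining Sema3a probe set, too dim for the test, read 48.3, 44.5 and 53.5 in control uteri against 45.1, 35.9 and 38.5 in Ihh-ablated uteri, overlapping and in the opposite direction (-0.29 with no filter on dim probe sets). The differences were 0.62 (SE 0.20, adjusted p = 0.136, 95% interval 0.16 to 1.08) and 0.38 (adjusted p = 0.126), and the brighter one passed without control replicate 3 (0.82, adjusted p = 0.0246). Sema3c, a class 3 ligand needed for heart outflow and vessel patterning in mice, read 1561, 1138 and 1153 in control uteri against 1326, 1031 and 1329 in Ihh-ablated uteri. Those groups overlapped, with a difference of -0.06 and an interval of -0.38 to 0.26.

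A Sema3d probe set, singled out after its values were seen, was too dim for the test. It read 44.4, 38.2 and 60.1 in control uteri against 83.4, 81.2 and 88.8 in Ihh-ablated uteri. All Ihh-ablated arrays lay above the control arrays, by 0.85 on the log2 scale with no filter on dim probe sets (adjusted p = 0.0656). The brighter Sema3d probe set differed by -0.12 (adjusted p = 0.571), so the probe sets of this gene disagreed.

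Membrane-bound semaphorins of classes 4 to 7 gave 13 tested genes, and 0 passed. Sema5a, a transmembrane semaphorin with thrombospondin repeats, read 551, 490 and 700 in control uteri against 700, 825 and 845 in Ihh-ablated uteri by the probe set of its lowest p. Control replicate 3 touched the lowest Ihh-ablated array there. The difference was 0.46 (SE 0.14, adjusted p = 0.115), while its brightest probe set gave 0.19 (0.256) and the dimmest tested one 0.48 (0.125). Without control replicate 3 the first of these passed (0.60, adjusted p = 0.0152). Its relative Sema5b read 101.4, 118.1 and 101.0 in control uteri against 85.8, 78.6 and 79.2 in Ihh-ablated uteri, a difference of -0.39 (adjusted p = 0.125). The remaining Sema5a probe set, too dim for the test, read 41.4, 43.7 and 50.5 in control uteri against 35.7, 41.2 and 34.1 in Ihh-ablated uteri. Its groups did not overlap, and its direction was the opposite one (-0.29 with no filter on dim probe sets). The tested probe sets of Sema5a thus read higher and those of Sema5b lower in Ihh-ablated uteri, none past the test.

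Sema6c, a transmembrane class 6 semaphorin, was singled out after its values were seen because its 3 tested probe sets agreed. The brightest read 428, 608 and 358 in control uteri against 324, 320 and 293 in Ihh-ablated uteri. Groups did not overlap in any of the 3 probe sets, and control replicate 2 was the highest array in each. The differences were -0.54, -0.46 and -0.43, with adjusted p of 0.131, 0.182 and 0.221. The first passed without control replicate 3 (adjusted p = 0.0233).

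Plexins, the semaphorin receptors, gave 9 tested genes, 3 above 0 and 6 below, with a median of -0.11, where 56.7% of all genes lay below 0. Plxnb3, of the B subfamily, read 241, 338 and 219 in control uteri against 207, 182 and 168 in Ihh-ablated uteri. The groups did not overlap, but control replicate 2 stood well above the other controls. Its difference of -0.50 (adjusted p = 0.144) had no counterpart in the gene's other probe set (0.03, 0.899). Plxna3, a partner of class 3 semaphorins, showed the same split, -0.37 (adjusted p = 0.186) against 0.05 (0.822) in the other probe set. The antisense transcript Plxna4os1 differed by -0.46 (adjusted p = 0.129, and 0.0242 without control replicate 3) and its partner Plxna4 by -0.24 (0.294). Plxna1, at 465, 456 and 511 in control uteri against 433, 467 and 484 in Ihh-ablated uteri, and Plxnd1, the endothelial receptor of Sema3e, at 377, 384 and 361 against 381, 365 and 406, overlapped between groups. The intervals of these probe sets were narrow, -0.26 to 0.17 for Plxna1 and -0.17 to 0.25 for Plxnd1. The other Plxna1 probe set, which is dimmer, gave -0.31 (adjusted p = 0.279) with a wider interval of -0.68 to 0.06.

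Ephrins held the lowest adjusted p of all guidance probe sets, that of Efna1, a membrane-anchored ligand of EphA receptors. One Efna1 probe set read 99.4, 91.0 and 100 in control uteri against 120, 133 and 138 in Ihh-ablated uteri. The brighter one read 147, 128 and 155 in control uteri against 183, 184 and 201 in Ihh-ablated uteri. Neither overlapped between groups. Their differences of 0.43 (SE 0.12, adjusted p = 0.101) and 0.40 (SE 0.12, adjusted p = 0.117) were nearly equal. Neither was called when any 1 array was left out, the lowest adjusted p then being 0.0699 and 0.0600. Epha2, a main receptor of this ligand, read 347, 333 and 207 in control uteri against 221, 185 and 322 in Ihh-ablated uteri. Its arrays were split within both groups and overlapped (difference -0.29, interval -0.83 to 0.26, adjusted p = 0.479), and Epha2 is named here as the partner of Efna1.

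Ephrin-B2 and its receptor Ephb4, the pair that marks arteries and veins, did not differ past the test. Efnb2 read 513, 469 and 668 in control uteri against 498, 454 and 643 in Ihh-ablated uteri. Replicate 3 was the highest in both groups, and the groups overlapped. The difference was -0.05 (interval -0.41 to 0.32), and 1 dimmer probe set of 4 gave -0.36 (adjusted p = 0.209, and 0.0443 without control replicate 3). Ephb4 read 326, 360 and 311 in control uteri against 353, 314 and 366 in Ihh-ablated uteri, a difference of 0.05 with an interval of -0.19 to 0.29. Efnb1, a ligand of EphB receptors encoded on the X chromosome, differed by 0.07 with an interval of -0.13 to 0.27. Of the 11 Eph receptors tested, 8 lay below 0 and 3 above (median -0.13), where 56.7% of all genes lay below 0. Epha10, the one of lowest p, differed by -0.27 (adjusted p = 0.313).

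**Figure D2:**
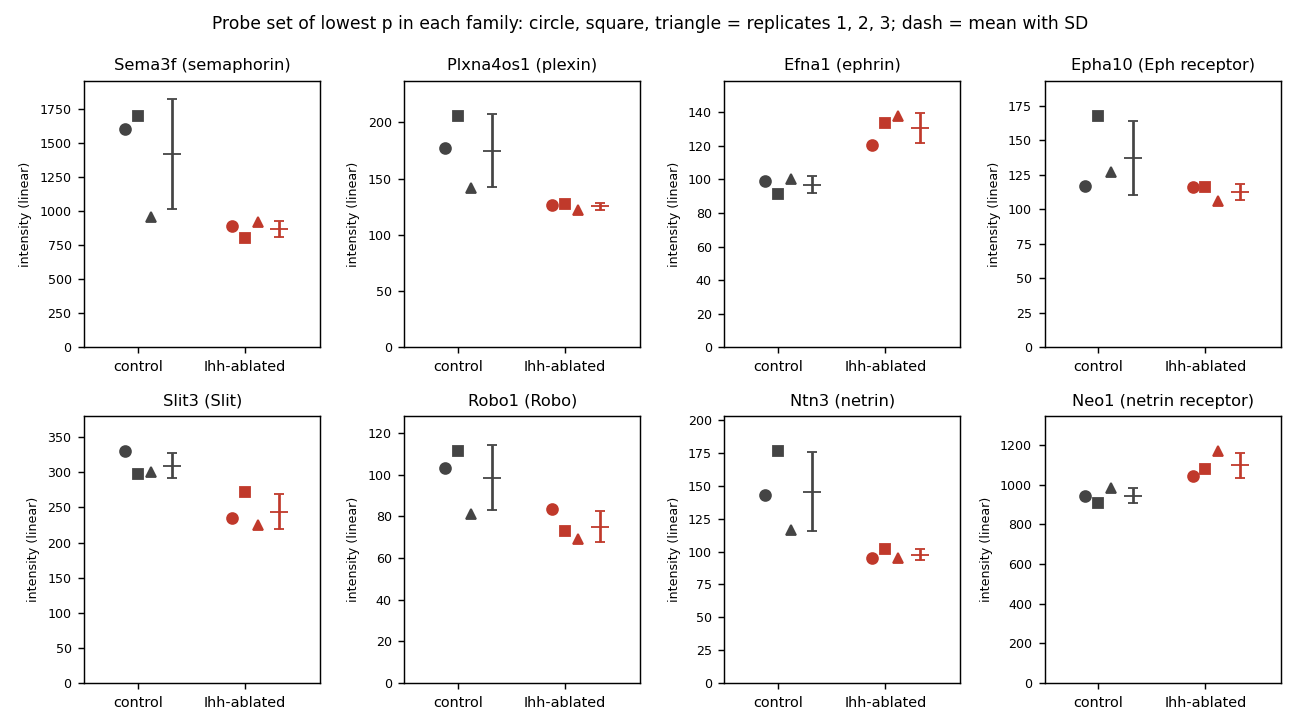
Linear intensity (vertical axis, from 0) on each array of the probe set with the lowest p in each of the 8 families, with group means and SD. Control replicate 3 (triangle) is the control array nearest to the Ihh-ablated mean in 6 of the 8 families, the exceptions being Epha10 and Slit3. The share of the whole array was not computed for this. Efna1 and Neo1 lie higher on all 3 Ihh-ablated arrays than on any control array. Sema3f, Plxna4os1, Epha10, Slit3 and Ntn3 lie lower on all 3, and Robo1 overlaps.

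The Slit ligands differed from each other in sign. Slit2 read 165.5, 140.6 and 209.9 in control uteri against 233.6, 209.6 and 232.4 in Ihh-ablated uteri by its brightest probe set. Control replicate 3 was level with the lowest Ihh-ablated array, so the groups just overlapped. The difference was 0.41 (SE 0.15, adjusted p = 0.170, and 0.0331 without control replicate 3), against -0.20 (0.516) in the dimmer probe set. Slit3, a ligand that also acts in vessels and the diaphragm of mice, read 330, 297 and 301 in control uteri against 235, 272 and 225 in Ihh-ablated uteri. Every Ihh-ablated array was below every control array, by 0.34 on the log2 scale on average (SE 0.11, adjusted p = 0.136). Slit1 differed by -0.24 (adjusted p = 0.343).

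Values of Robo1, Robo2 and Robo3, receptors of the Slit pathway, overlapped between the groups. Robo1 read 215, 146 and 162 in control uteri against 160, 152 and 185 in Ihh-ablated uteri by its brightest probe set, a difference of -0.06 (interval -0.42 to 0.31). A dimmer probe set gave -0.39 (adjusted p = 0.183). Robo2 read 76.6, 67.8 and 106 in control uteri against 78.6, 94.9 and 106 in Ihh-ablated uteri. Its groups overlapped (0.17, interval -0.25 to 0.59), as did those of Robo3 (0.22, adjusted p = 0.476).

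The netrins differed in sign as well. Ntn1, the secreted attractant and repellent, read 596, 725 and 810 in control uteri against 1054, 953 and 825 in Ihh-ablated uteri. The groups were separate, though the highest control array and the lowest Ihh-ablated one nearly met. Its difference was 0.41 (SE 0.13, adjusted p = 0.124, and 0.0385 without control replicate 3), while the dimmer Ntn1 probe set gave -0.23 (0.472). Ntn3, a related ligand, read 143, 176 and 117 in control uteri against 95.2, 102 and 95.3 in Ihh-ablated uteri. All 3 Ihh-ablated arrays lay below the controls, by -0.56 (SE 0.16, adjusted p = 0.106, and 0.0195 without control replicate 3). Ntn4, a laminin-like netrin of basement membranes, differed by -0.02 (interval -0.35 to 0.31), and Ntn5 differed by -0.23 (adjusted p = 0.364).

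Of the netrin receptors, Neo1 (neogenin) had several probe sets of 1 sign. Its brightest read 941, 906 and 982 in control uteri against 1046, 1080 and 1169 in Ihh-ablated uteri. These groups did not overlap, and the difference of 0.22 was small (SE 0.08, adjusted p = 0.152). Its other 3 tested probe sets gave 0.32, 0.34 and 0.28, all in the same direction and none past the test, though the one at 0.34 passed without control replicate 3 (adjusted p = 0.0496). Unc5b, the Unc5 receptor of endothelium, read 184, 251 and 157 in control uteri against 150, 143.6 and 123.2 in Ihh-ablated uteri. Control replicate 2 was far above the rest, and the difference of -0.48 (adjusted p = 0.163, and 0.0473 without control replicate 3) was 0.01 in the other probe set. Unc5d differed by -0.32 (adjusted p = 0.184), and Unc5a, Unc5c and Dcc did not pass either.

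Probe sets of 1 gene disagreed about as often as over the whole array. Of 29 guidance genes with several tested probe sets, 13 had differences of both signs (44.8%, against 45.7% of the 7080 genes with several) and 16 of 1 sign. In 4 of them (13.8%), every tested probe set separated the groups the same way, Efna1 and Sema3a higher and Sema5b and Sema6c lower, and so it did in 8.26% of all genes with several, a difference that was not tested. Such probe sets read the same RNA samples and are not independent of each other. On the side of lower values, control replicate 2 was the brightest of the 6 arrays in 47 of the 66 guidance probe sets below 0 (71.2%), and in 70.1% of all probe sets below 0. That array also had the highest median intensity over all probe sets (142, against 121 to 126). Probe sets below 0 were picked for high controls, which favours a control array as the brightest. Without that choice, control replicate 2 was the brightest in 42.5% of all tested probe sets and 48.2% of guidance ones. Among 13 lower guidance probe sets with an unadjusted limma p under 0.05 it was so in 11, with no array share computed. How far it stood above the other arrays in single genes was not compared. The median of the guidance genes was -0.04 without control replicate 2 (all genes -0.01), -0.11 without control replicate 1 (all genes -0.06) and -0.12 without control replicate 3 (all genes -0.04).

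**Figure D3:**
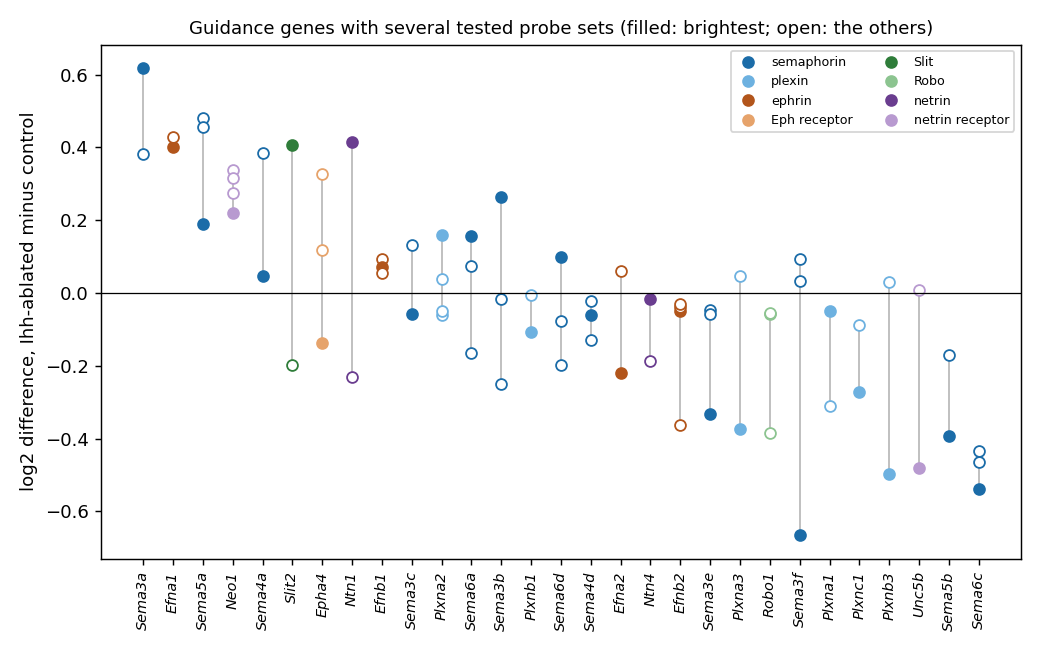
Log2 difference (Ihh-ablated minus control, vertical axis) of each tested probe set of the 29 guidance genes with several, joined by a line per gene, with the brightest probe set filled. Lines of 13 genes cross 0, with the widest span at Sema3f, from -0.67 to 0.09.

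Calls among guidance genes appeared when control replicate 3 was left out, at about the share of the whole array. Without that array 8 of 66 guidance genes passed (12.1%), against 12.2% of all genes tested. Higher were Sema3a, Slit2 and Ntn1, and lower were Sema3f, Sema6c, Ntn3, Unc5b and Plxna4os1. A second probe set of Sema4a, a transmembrane semaphorin of class 4, also passed there (adjusted p = 0.0493), while its brightest did not. Leaving out Ihh-ablated replicate 2 as well left Sema3f and Sema6c (3.03%, against 7.12% of all genes). Leaving out any other single array gave 0 guidance calls, and so did the adipocyte marker mean as a covariate, with which 0.122% of all genes passed.

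**Figure D4:**
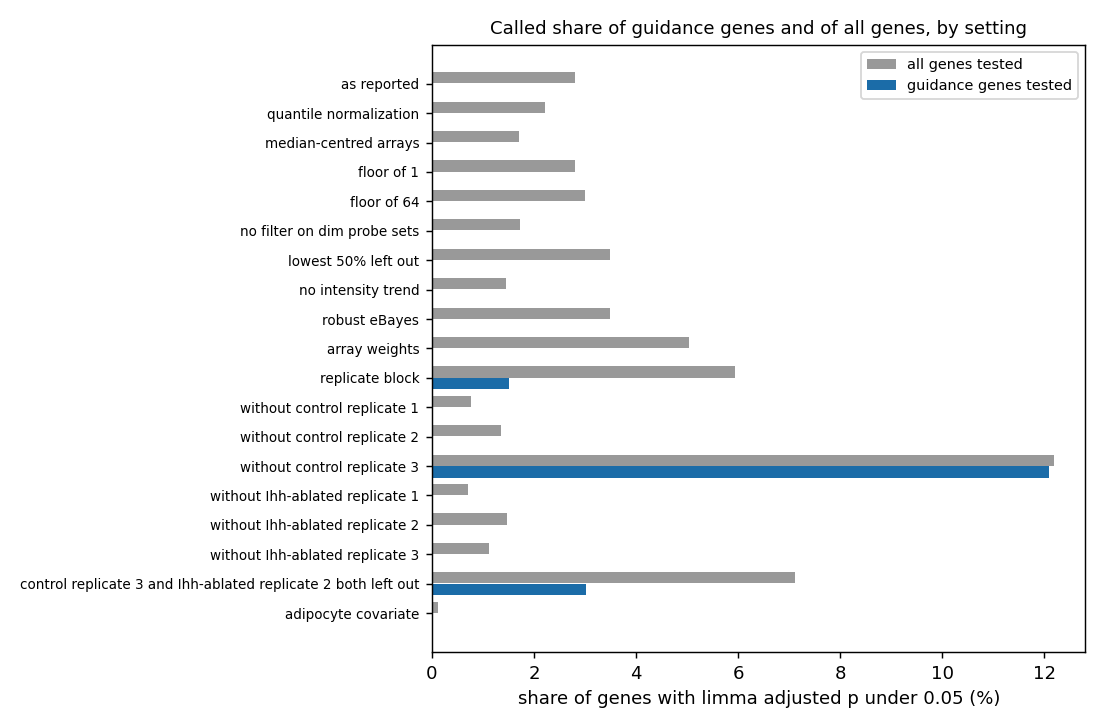
Share of genes with a limma adjusted p under 0.05 (horizontal axis, percent) among all genes (grey) and guidance genes (blue) as reported and in 18 alternatives. Guidance calls appear in 3 of them, and only without control replicate 3 does their share (12.1%) come near that of all genes (12.2%).

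Partners of these ligands and receptors were examined from a list of 78 genes, of which 72 were tested: 1 rose, 1 fell and 70 did not pass, with a median of 0.05. The called share of 2.78% was that of the whole array (2.81%). Sdc1, the cell surface proteoglycan syndecan 1, which binds many heparin-binding ligands, read 1159, 1047 and 1034 in control uteri against 1418, 1540 and 1412 in Ihh-ablated uteri. It rose 1.35-fold (log2 0.43, SE 0.08, adjusted p = 0.0254), its other 3 probe sets giving 0.45 (0.0340), 0.46 (0.0764) and -0.20 (0.528). Sdc1 is also an epithelial gene, and the summed epithelial markers of the Ihh-ablated arrays lay above those of control replicates 1 and 2, but not all above control replicate 3. Among the controls, replicate 3 had the highest epithelial sum (10534) and the lowest Sdc1 reading (1034). The part of epithelium in the Sdc1 values was not tested. Cfl1 (cofilin 1), the actin-severing protein at the end of several guidance pathways, read 4773, 4835 and 4831 in control uteri against 4197, 4168 and 3996 in Ihh-ablated uteri. It fell by 0.22 on the log2 scale (SE 0.04, adjusted p = 0.0384), and its other probe set gave -0.28 (0.0645). Both calls were lost when any 1 array other than control replicate 3 was left out, whereas without control replicate 3 there were 6 partners higher and 5 lower (15.3%, against 12.2% of all genes). By list, 0 of 22 semaphorin co-receptors and effectors, 0 of 17 Eph and ephrin effectors, 1 of 12 Slit and Robo effectors, 0 of 12 netrin partners and 1 of 9 shared cytoskeletal effectors passed.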

How the data were processed

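The deposited table holds linear intensities, processed by the authors, of each probe set on 6 arrays. Biotin-labelled cRNA was made from total uterine RNA, per the labels' protocols. How probes were summarised, background-corrected and normalized is not given in the sources used here, and no detection calls were used, so dim values have no stated background. Groups came from sample titles.

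After 64 control probe sets were left out, 34945 of 45037 probe sets had 1 gene symbol in the platform annotation, 932 had several and 9160 none. By Entrez identifier 34741 matched the GRCm38.p6 gene table, with 0 symbols renamed. A floor of 16 was applied (1821 values) and log2 taken. The dimmest 25% by mean log2 (up to 6.16) were dropped, so that 33777 were tested. The test was limma's (version 3.58.1, R 4.3.3) lmFit and trended eBayes, on 4 residual plus 5.25 prior degrees of freedom, adjusted by Benjamini-Hochberg over the 33777. The log2 differences are Ihh-ablated minus control, levels are linear intensities, and a gene stands by its brightest probe set. The named genes were those called, the 3 of lowest p not called in each family, and a fixed list of ligands and receptors. The members, lists, named genes and alternatives were chosen with earlier results of these data known. In simulated data of 33777 probe sets for this comparison, 72 of 100 changed 2-fold and 98 of 100 changed 4-fold were recovered, with 4 false calls among 174. The real data gave 724 calls, and the largest guidance difference was 0.67 on the log2 scale, under 2-fold. The simulated shares are therefore not a detection rate for the guidance genes. Plots used matplotlib 3.10.9 (Python 3.11.15).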

Additional observations from a re-analysis of the deposited data

How the results depend on the processing

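Over the 18 alternatives run for each of 33 named probe sets, wherever the probe set was bright enough to be tested, 548 of the differences kept their direction and side of the threshold, 13 passed the threshold and 23 changed sign. The cause was not tested for any of them. All probe sets counted 348 higher and 376 lower as reported, 201 lower with median-centred arrays, 216 higher without the filter on dim probe sets, 136 and 238 without an intensity trend, 603 and 808 with array weights, 790 and 1125 without control replicate 3 and Ihh-ablated replicate 2, 3 and 19 with the adipocyte covariate and 876 and 976 at an adjusted p under 0.1. Leaving out 1 array gave 50 to 1346 higher and 106 to 2223 lower, the most without control replicate 3. Guidance probe sets went from 0 and 0 to 1 higher and 2 lower without control replicate 3 and Ihh-ablated replicate 2 (Sema5a, Sema3f and Sema6c), and to 0 to 6 higher and 0 to 6 lower when 1 array was left out. Guidance genes went to 2 lower without both arrays, and to 0 to 3 higher and 0 to 5 lower without 1 array. Partner genes were 1 higher and 1 lower as reported. They came to 0 and 0 with median-centred arrays, without a trend and with the adipocyte covariate. They came to 0 lower without the filter, 2 lower with a floor of 64 and 2 higher with robust eBayes. Array weights gave 2 and 5, and the mean of a gene's probe sets 0 and 2. Leaving out 1 array gave 0 to 6 higher and 0 to 5 lower. Of all genes, 3.01% passed with a floor of 64, 3.5% with robust eBayes and 5.04% with array weights.

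The labels number the replicates 1 to 3 in both groups, but these numbers share no stated origin. The deviations of same-numbered arrays correlated at -0.15, -0.04 and 0.25. Only the arrays of replicate 3 were closest to their own number. Replicate 1 of each group was closest to replicate 2 of the other group, and replicate 2 of each to replicate 1 of the other. With the replicate block, 808 probe sets were higher and 754 lower. Of the guidance probe sets, 1 was higher (Sema5a, 0.46, adjusted p = 0.0480) and 1 lower (Sema3f, -0.67, 0.0491). Of the guidance genes, 1 was lower (1.52%, against 5.94% of all genes in either direction). Of the partner genes, 2 were higher and 1 lower.

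Differences near 0 changed sign. With median-centred arrays Efnb2 read 0.042, Ntn4 0.074, Plxna1 0.043, Robo1 0.035 and Sema3c 0.033. With quantile normalization Ntn4 read 0.0099 and Robo1 0.019. With the adipocyte covariate Robo1 read 0.086, Robo2 -0.084 and Sema3c 0.14, and without control replicate 3 and Ihh-ablated replicate 2 Efnb2 read 0.20 and Ntn4 0.089. With 1 array left out the range was -0.19 to 0.099 for Efnb2, -0.16 to 0.095 for Ntn4, -0.085 to 0.0018 for Plxna1, -0.0028 to 0.074 for Plxnd1, -0.18 to 0.10 for Robo1 and -0.14 to 0.091 for Sema3c.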
